A study of Mus musculus with 3 samples.

Results

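Hydrogen sulfide handling in the mouse colon was described through 7 genes of the 24346 gene symbols in the series. The 4 detoxifying enzymes are the sulfide quinone oxidoreductase Sqor, which the files list under its older symbol Sqrdl, with Ethe1, Tst and Suox. The 3 producing enzymes are Cbs, Cth and Mpst. They were chosen by name, for the reactions their products catalyse, and the rule used no measured value, though earlier results of these data were known when it was written. All 7 were found in all 3 files.

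The tissue was the distal colon of mice of 8 weeks, labelled WT in genotype, JAX in strain (the name of a supplier) and steady-state in treatment. Polyadenylated RNA was sequenced in 3 labelled replicates, which form 1 group, so the series holds no second condition. No label ties the replicates to separate mice, and the design text speaks of a mouse in the singular. The tissue was not separated into layers or cell types, so each value is a mixture over epithelium, muscle, stroma, nerves and immune cells, and fewer cells of a type cannot be told apart from less RNA per cell.

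Hydrogen sulfide is a gas that blocks cytochrome oxidase at high levels. In the colon, bacteria of the lumen release it, and the epithelium also makes it from cysteine and homocysteine. Cbs and Cth, the cytosolic enzymes of transsulfuration, and Mpst, which acts on mercaptopyruvate in mitochondria and cytosol, form it in tissue. In mitochondria Sqor oxidises sulfide to a persulfide and hands the electrons to coenzyme Q. Ethe1, a persulfide dioxygenase, turns the persulfide into sulfite, Suox oxidises the sulfite to sulfate, and Tst (rhodanese) passes sulfane sulfur between sulfite, glutathione and thiosulfate.

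The windows just before the annotated starts are shown because Sqor and Mpst were listed with several starts whose shares are described further on, and because the members differed in base composition there. Each holds the 250 bases before a start, 5′ to 3′ on the strand of the gene, from RefSeq on GRCm38.p6. Capitals mark GGGCGG or its complement CCGCCC, the GC box, with overlapping matches counted. The table of windows matched 5 of the 7 members with 8 windows, of which 5 are printed. Tst and Cth had no entry.
Ethe1, chr7:24587293-24587542, plus strand: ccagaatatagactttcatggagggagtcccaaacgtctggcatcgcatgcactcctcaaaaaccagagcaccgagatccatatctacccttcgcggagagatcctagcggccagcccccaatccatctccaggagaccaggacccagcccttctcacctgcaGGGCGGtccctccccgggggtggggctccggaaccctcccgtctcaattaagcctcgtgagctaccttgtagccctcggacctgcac
Suox, chr10:128673919-128674168, minus strand: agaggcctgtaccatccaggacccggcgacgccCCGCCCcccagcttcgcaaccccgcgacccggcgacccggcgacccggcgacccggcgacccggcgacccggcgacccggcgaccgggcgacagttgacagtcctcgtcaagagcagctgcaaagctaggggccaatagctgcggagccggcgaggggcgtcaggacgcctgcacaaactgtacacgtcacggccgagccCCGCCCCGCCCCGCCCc
Mpst, first start, chr15:78406462-78406711, plus strand: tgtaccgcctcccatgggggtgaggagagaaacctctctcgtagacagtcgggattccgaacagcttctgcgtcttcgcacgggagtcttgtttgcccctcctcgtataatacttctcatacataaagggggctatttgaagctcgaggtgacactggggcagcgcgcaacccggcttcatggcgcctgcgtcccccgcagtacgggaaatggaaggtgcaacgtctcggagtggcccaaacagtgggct
Cbs, chr17:31637206-31637455, minus strand: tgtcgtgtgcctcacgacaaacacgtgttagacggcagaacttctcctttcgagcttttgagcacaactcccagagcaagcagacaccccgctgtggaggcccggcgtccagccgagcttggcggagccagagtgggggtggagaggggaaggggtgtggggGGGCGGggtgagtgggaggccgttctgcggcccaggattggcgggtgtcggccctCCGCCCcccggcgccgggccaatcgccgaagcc
Sqor, second start, chr2:122771463-122771712, plus strand: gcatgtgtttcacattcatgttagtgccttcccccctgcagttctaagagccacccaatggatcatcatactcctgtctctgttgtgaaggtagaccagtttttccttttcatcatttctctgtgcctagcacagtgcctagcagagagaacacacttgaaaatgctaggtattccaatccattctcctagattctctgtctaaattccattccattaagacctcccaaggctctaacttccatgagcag

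The GC box occurred 4 times in the window of Suox, 2 times in that of Cbs and 1 time in that of Ethe1. It was not found before the first start of Mpst or the second start of Sqor. Over the 8 windows of the members 4 held it, against 32.7% of all 32851 windows of this length. The 8 windows belong to 5 genes, since Mpst and Ethe1 have several each. An unprinted window of Ethe1, 6365 bases from its listed start, is among the 4. The windows of Suox and Cbs, the members of lowest level below, had the highest share of G and C of the 5, at 74.4% and 68.0%, against a median of 52.4% over all windows. Ethe1 stood at 60.0% and Mpst at 58.0%. The second start of Sqor, that of its non-coding entry and not of its leading isoform, lay lowest, at 44.4%. It had 0 CG pairs where Suox had 35 and the median window 6. The TATA box (TATAAA, either strand), present in 12.4% of all windows, was found in none of the 8.

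Levels are given in FPKM, the fragments counted per kilobase of transcript and scaled to the library's mapped fragments, summed over the isoforms of a gene. This unit is per length, so that levels can be set side by side between genes. The 3 files held 3.78e+06, 3.79e+06 and 1.24e+06 mapped fragments, as recovered from the deposited confidence bounds. Among single-isoform genes that averaged 1 FPKM or more, 5 of 8717 (0.0574%) differed between the files in a chi-square test against sampling noise with Benjamini-Hochberg adjustment. The median ratio of the variance between files to the sampling variance was 0.674. Apart from the few genes called, gene levels differed between the files by about sampling noise, and the files were counted as 1 sample. The division of genes between their isoforms was not tested, and for Sqor, Mpst and Cbs it differed between files, as given further on. The SD given with each mean is a measurement error of that sample and holds no estimate of the spread between mice. Intervals are 95% intervals from the deposited bounds and cover counting error only.

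Each member reached 1 FPKM in every file, and 5 of the 7 had a mean of at least 10 FPKM. Over all 24346 symbols, 51.9% had a mean of at least 1 FPKM and 23.3% one of at least 10 FPKM. Symbols at or above 1 FPKM had a median of 8.58 FPKM. Sqor, Ethe1, Tst, Mpst and Cth lay above that median, whereas Suox and Cbs lay below it.

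**Figure D1:**
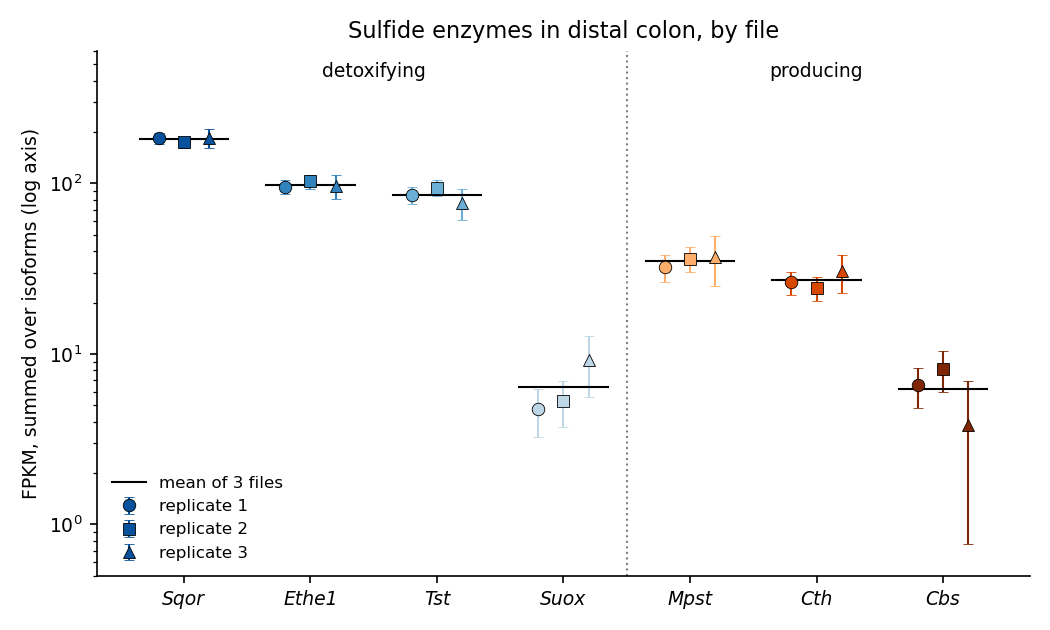
Level of each sulfide enzyme gene in FPKM (log axis) in replicates 1, 2 and 3, with 95% counting intervals as bars and the mean of the 3 files as a line. Sqor stands highest at 181 FPKM, and Suox (6.41 FPKM) and Cbs (6.19 FPKM) stand lowest, with the widest relative intervals.

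Of the detoxifying enzymes, Sqor, the entry step of the mitochondrial route (chromosome 2, 122765359 to 122809551), stood highest. Its level was 184 FPKM in replicate 1, 175 FPKM in replicate 2 and 185 FPKM in replicate 3. The mean was 181 ± 5.79 FPKM (SD over 3 files), with an interval of 171 to 192 FPKM and about 2323 fragments behind it. The files lay close together, and Sqor ranked 332 of all symbols, above 98.6% of them. It alone made up 41.2% of the summed FPKM of the 7 members.

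Ethe1 (chromosome 7, 24587543 to 24608926) stood at 95.6, 103 and 96.7 FPKM in replicates 1 to 3. Its mean was 98.4 ± 3.91 FPKM, with an interval of 91.5 to 105 FPKM, and it lay above 97.4% of symbols. Sqor stood 1.84-fold above it (interval 1.68 to 2.02) and was the higher in every file. The annotated exons of Ethe1 share 99 bases with Zfp575, a gene on the opposite strand. Zfp575 stood at 1.43 ± 0.264 FPKM, and no source used here gives the strandedness of the counting.

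Tst (chromosome 15, 78399556 to 78405859) stood at 85.9, 94.5 and 76.7 FPKM, a mean of 85.7 ± 8.90 FPKM with an interval of 78.6 to 92.8 FPKM. It ranked 733 of all symbols. Replicate 3 was the lowest of its files and replicate 2 the highest. The ratio of Ethe1 to Tst was 1.15, with an interval of 1.03 to 1.28, and Ethe1 was the higher in all 3 files. The lowest file of Ethe1, at 95.6 FPKM, lay just above the highest of Tst, at 94.5 FPKM.

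Suox, the molybdenum enzyme that ends the route in sulfate (chromosome 10, 128669887 to 128673918), stood far below the other detoxifying enzymes. It was measured at 4.72, 5.32 and 9.20 FPKM, a mean of 6.41 ± 2.43 FPKM with an interval of 5.01 to 7.82 FPKM. The high value came from replicate 3, the file of lowest depth, where about 24.7 fragments lay behind it. Of the single-isoform members, Suox had the smallest p between files, with a Benjamini-Hochberg adjusted p of 0.879 in the chi-square test over the 8717 single-isoform genes.

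The enzymes that consume sulfite were therefore at unequal transcript levels. Tst stood 13.4-fold above Suox, with an interval of 10.6 to 16.9. The ratio was 18.2 in replicate 1, 17.8 in replicate 2 and 8.34 in replicate 3. Ethe1, whose product is sulfite, stood 15.3-fold above Suox (interval 12.2 to 19.3). The ratio of Ethe1 to Suox was 20.3, 19.3 and 10.5 in replicates 1, 2 and 3. In both comparisons the files spread wider than the interval, and every file had Suox below the other gene.

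Of the producing enzymes, Mpst, a sulfurtransferase (chromosome 15, 78406712 to 78414015), stood highest. It was measured at 32.2, 36.2 and 37.1 FPKM, a mean of 35.2 ± 2.61 FPKM with an interval of 30.3 to 40.1 FPKM, above 92.2% of symbols. Cth, the cystathionine gamma-lyase that releases cysteine (chromosome 3, 157894248 to 157925063), stood at 26.3, 24.4 and 30.4 FPKM. Its mean was 27.0 ± 3.09 FPKM, with an interval of 23.9 to 30.2 FPKM, above 89.9% of symbols. Mpst was the higher in all 3 files, with a ratio of 1.30 (interval 1.08 to 1.56).

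Cbs, the cystathionine beta-synthase that opens transsulfuration (chromosome 17, 31612623 to 31637205), stood lowest of the 7. It was measured at 6.56, 8.16 and 3.85 FPKM, a mean of 6.19 ± 2.18 FPKM with an interval of 4.80 to 7.58 FPKM. Replicate 3 was lowest and rested on about 10.9 fragments. Cth stood 4.37-fold above Cbs (interval 3.39 to 5.63), and it was the higher in all 3 files, by 2.99-fold to 7.90-fold. Mpst alone stood at 1.06 times the sum of Cbs and Cth, with an interval of 0.890 to 1.26 that includes equality.

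In the order of mean FPKM the members ran Sqor, Ethe1, Tst, Mpst, Cth, Suox and Cbs. Each neighbour pair down to Cth over Suox had an interval of the ratio above 1, and in each of them the same gene was higher in all 3 files. Suox and Cbs did not differ beyond their error, with a ratio of 1.04 and an interval of 0.757 to 1.42. In replicates 1 and 2 Cbs was the higher and in replicate 3 Suox was. Without replicate 3 the ratio of Suox to Cbs was 0.682.

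None of the 4 members with 1 isoform was called different between the files, and 1 of the 4, Suox, had an unadjusted p under 0.05, as did 423 of all 8717 genes tested. In the test over all 12558 genes with isoform variances summed, where 9 genes (0.0717%) were called, 0 of the 7 members were.

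Summed, the detoxifying enzymes stood well above the producing ones. Their sums were 370, 377 and 368 FPKM in replicates 1, 2 and 3, and those of the producing enzymes were 65.1, 68.8 and 71.4 FPKM. The ratio of the mean sums was 5.43, with an interval of 4.93 to 5.98, and the ratios of the single files were 5.68, 5.49 and 5.15. The sums of the groups did not overlap in any file. Sqor by itself stood 2.65-fold above the 3 producing enzymes together (interval 2.38 to 2.94), and without Sqor the ratio was 2.78. The groups overlapped gene by gene, since Suox lay under Mpst and Cth in every file. The ratio of geometric means, which weighs each gene alike, was 3.02 with a pseudocount of 1 FPKM. No second condition exists to test this ratio against, so it carries an interval and no p-value.

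**Figure D2:**
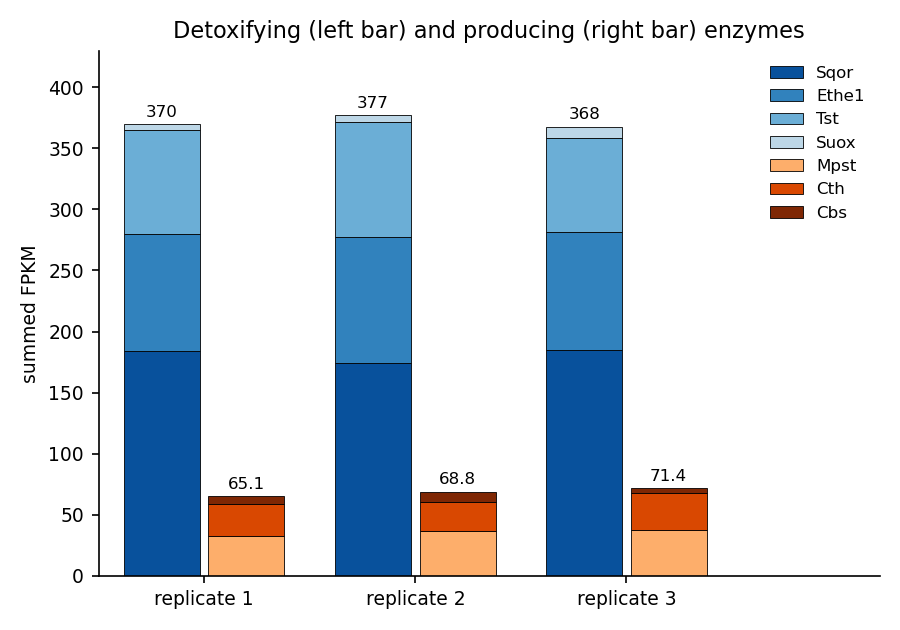
Summed FPKM of the detoxifying enzymes (left bar of each pair) and the producing enzymes (right bar) in replicates 1, 2 and 3, divided by gene. Detoxifying sums lie between 368 and 377 FPKM and producing sums between 65.1 and 71.4 FPKM.

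The assignment of genes to a side bears on this ratio. Selenbp1, a methanethiol oxidase whose reaction also releases hydrogen sulfide, stood at 470, 460 and 447 FPKM, a mean of 459 ± 11.3 FPKM. That was 6.71-fold above the 3 producing enzymes together and 1.24-fold above the 4 detoxifying ones (interval 1.18 to 1.30). With Selenbp1 counted among the producing enzymes, a choice made after its level was seen, the ratio of detoxifying to producing fell to 0.705, with an interval of 0.672 to 0.739. Its level is uncertain, because Selenbp2 (60.7 ± 5.27 FPKM) has a transcript 98.5% identical to it over 1712 bases. With Mpst, whose product also acts as a general sulfurtransferase, in neither group, the ratio was 11.2.

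Tst and Mpst are related sulfurtransferases that lie head to head on chromosome 15, with 853 bases between the starts listed in the files. Tst stood 2.43-fold above Mpst (interval 2.07 to 2.86) and was the higher in every file. The longest run of identical bases between a transcript of each gene, compared in the same orientation, was 18 bases long and is shown. Other isoforms and inexact matches were not compared in this way.
Run shared by Tst and Mpst: gagaagagcccagaggag
In the GENCODE M21 transcripts, no member had a match of 97% identity or more along 100 bases or longer to a transcript of another gene, on either strand. The overlap of Ethe1 with Zfp575, at 99 bases, fell just short of that length.

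Among the members, Sqor, Mpst and Cbs were listed with 3 isoforms each, and the other 4 with 1 isoform each. The division of reads between isoforms is a model estimate by Cufflinks. For Sqor the coding isoform NM_001162503 from the first start, at base 122765359, held 76.4%, 90.3% and 71.5% of the FPKM in replicates 1, 2 and 3. The non-coding entry NR_027888, from the second start at base 122771713 shown above, held 22.9%, 9.55% and 28.1%. Replicate 2 was the low one of the 3, at 16.7 FPKM (deposited bounds 11.7 to 21.7) against 42.1 FPKM (34.4 to 49.9) in replicate 1 and 52.0 FPKM (37.4 to 66.6) in replicate 3. The bounds of replicate 2 overlapped neither of the others. The third start, at base 122781999, held under 1% in each file. Counting coding isoforms only, Sqor stood at 144 FPKM and the ratio of detoxifying to producing enzymes at 4.89.

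For Mpst the first start (NM_001162493) held 97.6%, 97.5% and 72.1% of the FPKM. The second start, at base 78406801, was near 0 in replicates 1 and 2, with upper bounds of 0.457 and 0.458 FPKM. In replicate 3 it was at 6.77 FPKM, with bounds of 0.852 to 12.7 that overlapped neither of the others. The 3 Cbs isoforms share 1 start and are 2458, 2461 and 2503 bases long. The longest, NM_144855, led at 6.56 and 6.77 FPKM in replicates 1 and 2, and was near 0 in replicate 3, with an upper bound of 0.687 FPKM, below the lower bounds of the other files (4.79 and 4.85 FPKM). In replicate 3 the other 2 isoforms were at 2.03 and 1.82 FPKM, each with a lower bound of 0.

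**Figure D3:**
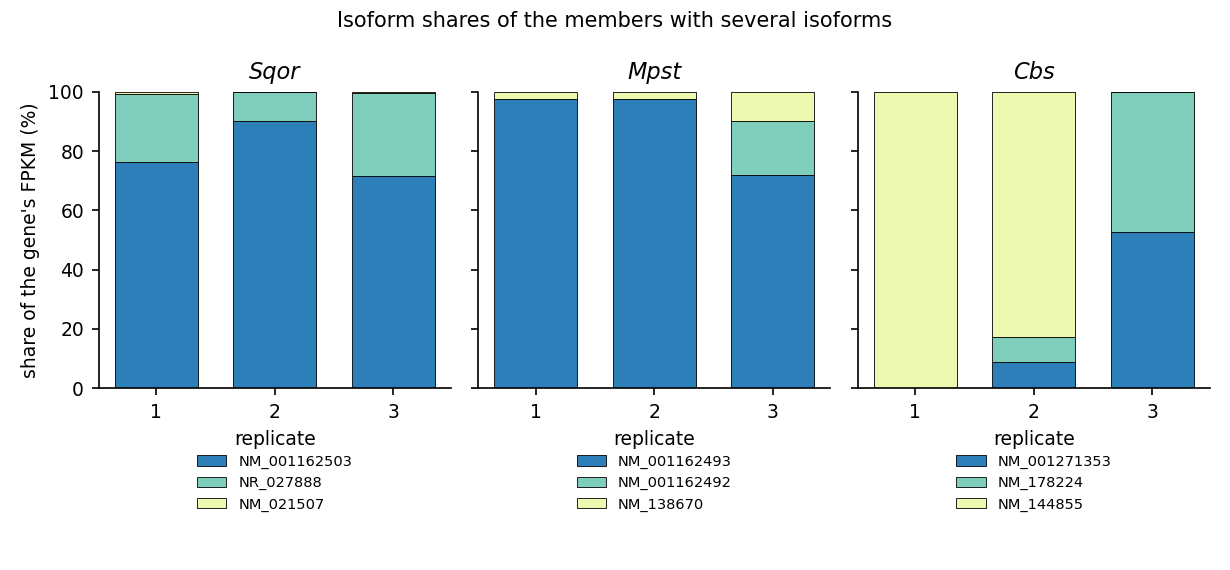
Share of the summed FPKM held by each isoform of Sqor, Mpst and Cbs, in percent, in replicates 1, 2 and 3. One isoform leads in every file for Sqor and Mpst, while the leading Cbs isoform of replicates 1 and 2 is near 0 in replicate 3.

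Around the members, 104 further genes of sulfur metabolism and of the electron acceptors of Sqor were read from 11 lists. Of these, 92 (88.5%) had a mean of at least 1 FPKM and 60 (57.7%) one of at least 10 FPKM, with a median of 14.7 FPKM. Over all symbols these shares were 51.9% and 23.3%. The median over all symbols was 1.25 FPKM, and that of symbols at or above 1 FPKM was 8.58 FPKM. Of the 104, 10 stood above Sqor, whereas among all symbols Sqor lay above 98.6%.

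The acceptors downstream of Sqor were abundant. All 12 genes of complex III, cytochrome c and complex IV stood above 10 FPKM, with a median of 359 ± 7.33 FPKM, led by Cox4i1 (695 FPKM), Cox6c (653 FPKM) and Uqcrb (597 FPKM). Sqor stood 1.31-fold above Uqcrc1 (interval 1.21 to 1.41), a core subunit and the lowest of the complex III genes listed. The median of the list and all its complex IV genes lay above Sqor. The 13 genes of coenzyme Q synthesis all reached 1 FPKM but had a median of 9.27 FPKM, led by Coq9 at 32.6 FPKM, Coq7 at 23.6 FPKM and Coq2 at 23.5 FPKM.

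The genes on the molybdenum cofactor list lay both above and below Suox, and the sulfurtransferase and persulfide genes covered a wide range. Suox needs the molybdenum cofactor, and all 5 genes on the list of that cofactor reached 1 FPKM. Mocs2 stood at 14.2 FPKM, Gphn at 8.39 FPKM and Mocs1 at 7.02 ± 0.305 FPKM, close to Suox itself. Mocs3 (2.57 FPKM) and Mocos (2.54 FPKM) stood lower. Of the 11 sulfurtransferase and persulfide genes, all above 1 FPKM, the thioredoxin Txn1 led at 554 FPKM. Tstd1, a thiosulfate sulfurtransferase that uses glutathione, stood at 127, 105 and 162 FPKM, a mean of 132 ± 28.3 FPKM, and the glutaredoxin Glrx at 90.9 FPKM. Tstd1 stood 1.53-fold above Tst (interval 1.34 to 1.76), whereas Tstd2 (10.3 FPKM) and Tstd3 (7.98 FPKM) stood below Tst. Slc25a10, the mitochondrial dicarboxylate carrier that also carries thiosulfate and sulfite, stood at 14.9 ± 0.424 FPKM.

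Of 12 genes that move or activate sulfate and thiosulfate, 9 reached 1 FPKM. The exchanger Slc26a3 stood at 215 FPKM, the sulfate transporter Slc26a2 at 69.4 FPKM, and the sulfate-activating enzymes Papss1 and Papss2 at 64.9 and 64.7 FPKM. Slc26a6 (0.864 FPKM) and Slc26a1 (0.115 FPKM) were under 1 FPKM in every file. Slc13a4 was listed at 0, where 3 fragments over the files together would give 0.105 FPKM.

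Upstream of Cbs, 11 of 12 methionine cycle genes reached 1 FPKM. Mat2a, the methionine adenosyltransferase of most tissues, stood at 75.0 FPKM, Ahcyl2 at 64.6 FPKM and Mat2b at 46.5 FPKM, whereas the liver-type Mat1a stood at 1.12 ± 0.298 FPKM and Bhmt2 at 0.137 FPKM. Cysteine has other fates than sulfide. Cdo1, the dioxygenase that sends cysteine to taurine, stood at 27.3 ± 1.28 FPKM, and its ratio to Cth was near 1 (Cth over Cdo1 0.989, interval 0.834 to 1.17). Csad followed at 13.6 FPKM and the taurine transporter Slc6a6 at 11.9 FPKM, and Gadl1 was listed at 0 (upper limit 0.0984 FPKM).

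For glutathione, 6 of 10 genes reached 1 FPKM, with Gss at 38.8 FPKM, Lap3 at 28.3 FPKM and Gclm at 24.3 FPKM, while Ggt1 stood at 0.497 FPKM and Chac1 at 0.188 FPKM. Of 7 cystine and cysteine carriers, Slc1a5 (37.7 FPKM), Slc3a2 (23.3 FPKM) and Slc1a1 (20.7 FPKM) led. Slc7a11, the cystine exchanger, stood at 0.338 FPKM and Slc3a1 at 0.331 FPKM. All 8 genes of the cysteine desulfurase and iron-sulfur assembly reached 1 FPKM, led by Iscu (54.2 FPKM), Fdx1 (23.2 FPKM) and Hscb (19.5 FPKM). Beside Selenbp1 and Selenbp2, the thiol methyltransferase Mettl7a1 stood at 101 FPKM. Dao, one source of the mercaptopyruvate that Mpst uses, made from D-cysteine, stood at 0.0555 FPKM, on a value above 0 in replicate 2 only. The other 7 genes of its list reached 1 FPKM, the aminotransferases Got2 (39.8 FPKM) and Got1 (28.1 FPKM) among them.

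**Figure D4:**
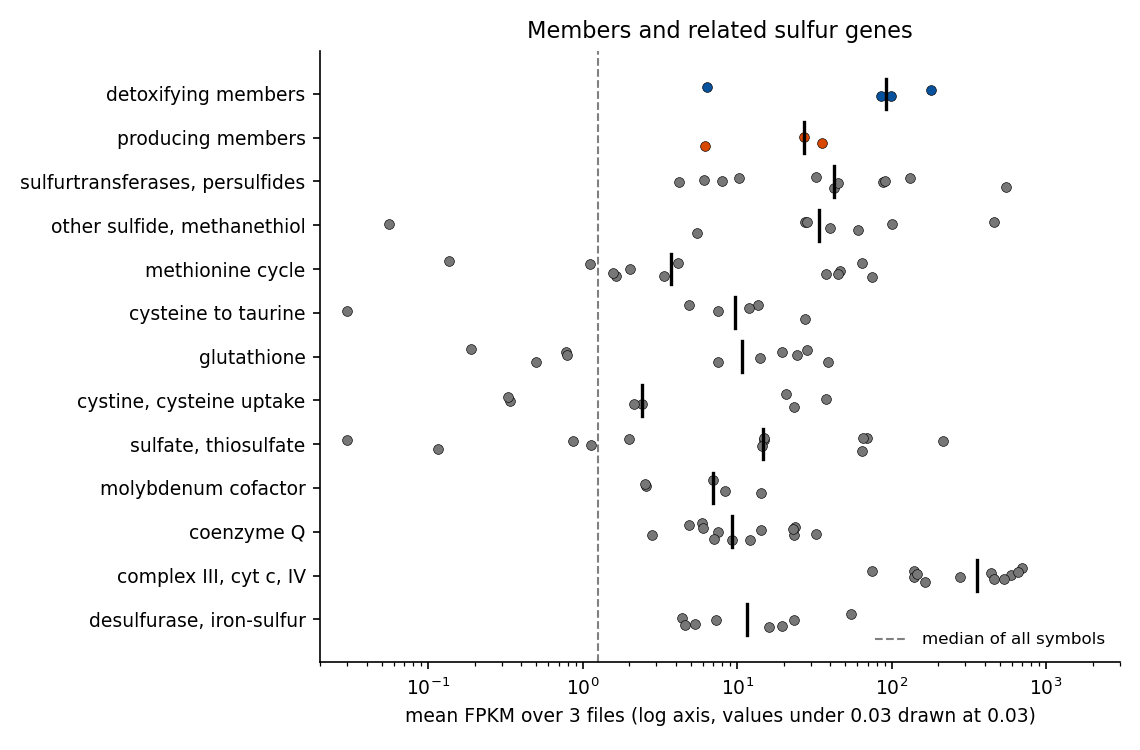
Mean FPKM over the 3 files (log axis) of each member and of the 104 related genes, 1 row for each list, with a bar at the list's median and a dashed line at the median of all symbols. The detoxifying members other than Suox lie at the upper end, and values under 0.03 FPKM are drawn at 0.03 FPKM.

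Of 53 genes of these lists that were searched, the 7 members included, 25 had such a match, and reads from the matched stretch could be counted for either gene. For 14 of them a match lay on the same strand, and these were Selenbp1, Selenbp2, Uqcrb, Cox6c, Coq2, Iscu, Gclm, Mat2a, Mettl7a1, Slc3a2, Mocs1, Tstd1, Bhmt2 and Dao. For the other 11 it lay on the opposite strand only, and these were Cox4i1, Gss, Slc1a1, Slc3a1, Gphn, Csad, Slc6a6, Slc25a10, Ahcyl2, Gadl1 and Slc26a1. By the longest match of each gene, the stretch ran from the whole transcript, in Selenbp1, down to 3.75% of it, in Slc26a1.

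Markers of the labelled tissue were present. The 10 markers of colon epithelium had a median of 226 FPKM, and the 6 of smooth muscle one of 416 FPKM. RNA of other organs bears on the members, because enzymes of both the detoxifying and the producing group are abundant in liver. All 19 liver markers were above 0 in every file, with means from 1.07 to 129 FPKM and a sum of 392, 395 and 372 FPKM in replicates 1, 2 and 3. Alb, the plasma albumin gene, led at 129 ± 5.35 FPKM, and the enzymes Cyp2e1 (8.83 FPKM) and Cps1 (4.75 FPKM) were lower. The part of liver RNA in the levels of the members was not tested. Kidney is another tissue rich in these enzymes. Of its 10 markers 7 were listed at 0 in every file, Umod and Slc12a1 among them, and their sum was between 0.146 and 0.365 FPKM. The 7 pancreas markers were all listed at 0. Of 8 markers of small intestine 5 reached 1 FPKM in every file, led by Fabp6 (95.6 FPKM) and Slc15a1 (85.3 FPKM), with sums of 265, 256 and 246 FPKM, while Lct stood at 0.0440 FPKM and Alpi at 0.285 FPKM. The part of these cells in the levels of the members was not tested.

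**Figure D5:**
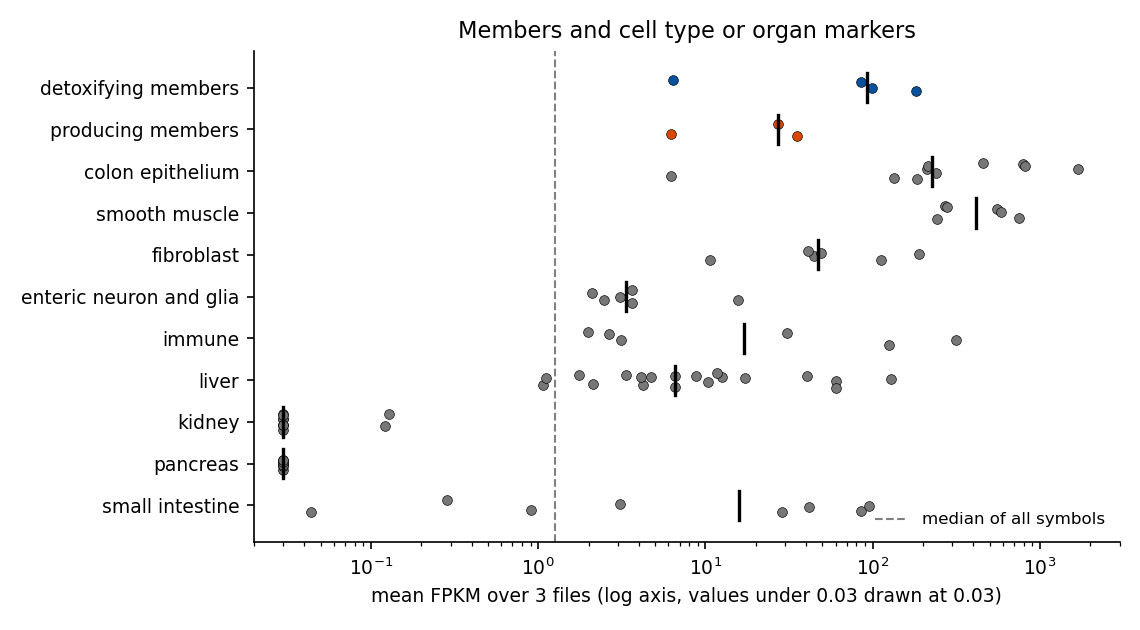
Mean FPKM over the 3 files (log axis) of the members and of markers of colon cell types and of other organs, with a bar at each list's median and a dashed line at the median of all symbols. Liver markers lie between 1.07 and 129 FPKM, while kidney and pancreas markers lie near or at 0, drawn at 0.03 FPKM.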

How the data were processed

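Polyadenylated RNA of 3 replicates was extracted with TRIzol and made into Illumina TruSeq libraries, per the labels' protocols. The submitters' processing notes list Cufflinks 2.2.1 beside Bowtie2 2.3.4.3 and TopHat2 2.1.1. The authors deposited FPKM per isoform, with a lower and an upper 95% bound, per the file headers. The coverage signal per isoform was also deposited and was used only to compare depth. No source used here gives the trimming, the strandedness or the treatment of reads with several matches.

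The notes name GRCm39, but the deposited positions fit GRCm38. Against RefSeq on GRCm38.p6, 97.9% of 23037 symbols had a start or end within 1000 bases, and the members differed by at most 32 bases. Positions are printed as GRCm38, counted from 1.

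FPKM were summed per symbol with no rescaling. The upper bound less the FPKM was read as 2 standard errors, and isoform variances were added, without covariances. Intervals of ratios used the delta method. Depth was the Theil-Sen slope of fragments per FPKM on length in genes with 1 isoform, over 800 bases and up to 30 fragments, whose recovered fragments lay within 0.01 of a whole number, as 64.1% to 64.3% did. The test between files was tested on simulated data. Members and lists were chosen with earlier results of these data known. Of each list the text names the 3 highest genes, those under 1 FPKM in every file and 7 genes that act on a metabolite of a member. Mocs3, Mocos, Tstd2, Tstd3, Got1, Got2 and Uqcrc1 are named besides, and were not searched for copies. Copies were sought with BLAST+ 2.17.0 (megablast). Alternatives covered isoforms, scaling, weighting, group membership, thresholds and each replicate left out. SciPy 1.17.1, pandas 2.3.3 and numpy 2.4.6 were run under Python 3.11.15, with figures from matplotlib 3.10.9.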

Additional observations from a re-analysis of the deposited data

How the results depend on the processing

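The ratio of detoxifying to producing enzymes, 5.43, stayed above 1 in each alternative but one. It was 0.705 with Selenbp1 counted as producing, an alternative added after its level was seen. It was 4.89 with coding isoforms, 11.2 with Mpst in neither group, 2.78 without Sqor, 7.04 with single-isoform genes (also added later), and 3.02 or 3.10 as a ratio of geometric means with a pseudocount of 1 or 0.1 FPKM. Leaving out each replicate in turn gave 5.31 to 5.58. Suox over Cbs turned from 1.04 to 0.817 with means weighted by depth and to 0.682 without replicate 3, the lowest of 0.682 to 1.34 over the replicates left out. Genes called between files numbered 9 with all genes tested and 2 to 5 when each replicate was left out, against 5. No member that was tested was called under any of these. Sqor, Mpst and Cbs, each with several isoforms, were tested only in the setting with all genes. Of 56 values of ratios between single members, 2 moved by more than the spread of the files, beside the 2 of Suox over Cbs that turned direction. Of 49 levels 3 moved by more: Sqor with the highest isoform or coding isoforms only, and Mpst with the highest isoform. The largest change of a level, 1.28-fold for Suox without replicate 3, lay within the spread of its files. Of 35 ranks 9 moved: against symbols above 0 only, Suox lay above 56.4% and Cbs above 55.5%, down from 69.4% and 68.8%. Sqor over Ethe1 fell to 1.46 with the highest isoform. All 66 counts of single lists stayed within 1.5 times of their value in the report. Depth limits Suox and Cbs most, with about 107 and 139 fragments in all. No paired analysis was possible because the samples form 1 group.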
